A study of Mus musculus with 82 samples.

Results

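The Foxa genes Foxa1, Foxa2 and Foxa3 (gene IDs 15375, 15376 and 15377) were described through the ChIP-seq peaks around them. They are 3 of 21887 coding genes. Peaks were taken from 4 deposited lists when the peak midpoint lay within 100 kb of the gene span in mm10. That gave 26 of 30129 peaks for Eomes tagged with GFP (EoGFP), 12 of 27588 for Brachyury tagged with GFP (BraGFP), 35 of 38193 for Eomes tagged with V5 (EoV5) and 28 of 36203 for Eomes joined to the VP16 activation domain (EoVP16), or 101 of 132113 in all.

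The series held 82 mouse samples, of which 12 were ChIP-seq, 66 RNA-seq and 4 ATAC-seq, and the lists used here came from the ChIP-seq libraries of the 4 constructs after induction. ChIP-seq pulls down DNA bound to a tagged protein, and a peak is a region where the recovered fragments pile up over background. Every group shared the same background, embryoid bodies grown from A2lox.Cre mouse embryonic stem cells that lacked both Eomes and Brachyury (dKO). Each line carried 1 construct under doxycycline control and was collected on day 5, after activin A (ActA, 30 ng/ml) and doxycycline (5 µg/ml per the ChIP growth protocol, although the labels' treatment protocol writes the unit as mg/ml). EoGFP and BraGFP were recovered with an anti-GFP antibody from 2 libraries each, and EoV5 and EoVP16 with an anti-V5 antibody from 1 library each. Each construct was therefore represented by 1 list, so no replicate error was available and no test was made. Each list was kept above its own minimum pileup, the height in fragments at the summit, which was 120 in the EoGFP list, 40 in BraGFP, 60 in EoV5 and 36 in EoVP16. A region without a peak in a list was either below that list's minimum or not called for another reason. Neither is the same as an unbound site.

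Foxa proteins are forkhead transcription factors whose winged-helix domain can bind its sites on nucleosomal DNA and help open chromatin for other factors, which is why they are called pioneer factors. Foxa2 is required for the node, the notochord and the definitive endoderm, while Foxa1 acts with Foxa2 in liver, lung and pancreas, and Foxa3 is known from liver and gut. Eomes and Brachyury are T-box factors of the primitive streak, and Eomes in particular is required for definitive endoderm.

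The start of each gene is shown first, because the 4 lists covered the 3 starts differently. The sequences are RefSeq's for GRCm38.p6 (mm10), read 5′ to 3′ on the minus strand on which all 3 genes lie, from 250 bp before to 50 bp after the start site. They cover chr12:57546062-57546361 for Foxa1, chr2:148046920-148047219 for the outermost of 3 listed starts of Foxa2, and chr7:19023490-19023789 for Foxa3. Capitals mark exact matches, on either strand, to the T-box core GGTGTG, its longer form GGTGTGA, or the forkhead sequences TGTTTAC and TGTTTGT.
Foxa1: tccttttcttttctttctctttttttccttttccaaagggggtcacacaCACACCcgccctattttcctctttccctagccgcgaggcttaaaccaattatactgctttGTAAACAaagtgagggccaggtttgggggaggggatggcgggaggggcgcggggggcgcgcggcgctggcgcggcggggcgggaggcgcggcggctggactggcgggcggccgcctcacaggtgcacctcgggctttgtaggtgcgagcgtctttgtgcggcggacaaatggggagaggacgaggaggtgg
Foxa2: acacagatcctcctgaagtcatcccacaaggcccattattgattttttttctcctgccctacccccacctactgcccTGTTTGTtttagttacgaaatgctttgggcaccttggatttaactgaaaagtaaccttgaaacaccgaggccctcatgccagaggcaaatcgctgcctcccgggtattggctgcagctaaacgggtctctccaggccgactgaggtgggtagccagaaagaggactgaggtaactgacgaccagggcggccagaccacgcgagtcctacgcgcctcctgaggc
Foxa3: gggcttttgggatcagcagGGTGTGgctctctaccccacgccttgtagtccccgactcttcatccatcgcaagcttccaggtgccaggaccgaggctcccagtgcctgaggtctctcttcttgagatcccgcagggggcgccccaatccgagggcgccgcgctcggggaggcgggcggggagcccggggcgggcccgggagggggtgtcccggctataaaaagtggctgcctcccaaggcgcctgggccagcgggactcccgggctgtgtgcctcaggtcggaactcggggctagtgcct

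In the Foxa1 window the T-box core stood on the opposite strand, so that it reads CACACC here, at -201 bp from the start site. The first of the forkhead sequences also stood on the opposite strand, at -141 bp. The Foxa2 window held TGTTTGT at -173 bp and none of the other sequences. In the Foxa3 window GGTGTG stood at -231 bp. GGTGTGA, which contains the T-box core, was in none of the 5 windows listed for the 3 genes. Among 32544 start windows of the same length, 19.0% held GGTGTG, 3.95% GGTGTGA, 3.66% TGTTTAC and 6.64% TGTTTGT. The windows were 62.3%, 54.3% and 69.0% G or C, beside a median of 53.0% over all windows. These matches describe letters only: the window without the T-box core was that of Foxa2, the start covered by peaks of all 4 lists. The EoV5 and EoVP16 peaks over these starts had their summits outside the printed windows. The sequence under those summits was not searched.

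Foxa2 was the Foxa gene with a peak of every construct over its start. EoGFP covered chr2:148045565-148047384 (1820 bp) and BraGFP covered chr2:148045903-148047338 (1436 bp), and 6.50% and 6.43% of their lists were as wide. The EoV5 peak, chr2:148044505-148047477, reached 336 fragments (exact Poisson 95% interval 301 to 374), 48.1-fold over the caller's background, and the EoVP16 peak, chr2:148045648-148047558, reached 152 (129 to 178), 25.6-fold. Among the peaks of their own lists, 6.66% and 3.14% were as tall, so both stood high in their lists. Their summits lay 485 and 510 bp past the outermost start, inside the gene. All 4 peaks also touched the window of the middle start, at 148045948, and the 3 Eomes lists without BraGFP touched that of the innermost, at 148045464.

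The other 2 starts were covered by fewer lists. At Foxa3 the EoGFP peak chr7:19023025-19025365 (2341 bp, with 2.06% of the list as wide), the EoV5 peak chr7:19023076-19025305 and the EoVP16 peak chr7:19023394-19025841 lay over the start, and no BraGFP peak did. EoV5 reached 72 fragments (56.3 to 90.7) and EoVP16 reached 56 (42.3 to 72.7), heights that 79.8% and 46.8% of their lists equalled or passed, and the summits stood at -1390 and -1305 bp from the Foxa3 start. Those summits fell inside Sympk, a gene for a scaffold protein of mRNA 3′ end processing whose span begins 0.838 kb upstream, so the peak is shared between the 2 genes and cannot be given to either. At Foxa1 the EoVP16 list alone had a peak over the start, chr12:57544919-57547500 (2582 bp), with a summit of 41 fragments (29.4 to 55.6) at -561 bp. That height is close to the EoVP16 minimum of 36, and the peak also reached Ttc6, a tetratricopeptide repeat gene whose span from 57546704 overlaps that of Foxa1. The listed Foxa1 start, 57546111, is not the upstream end of the Foxa1 span, which reaches 57548029. The EoVP16 summit, at 57546672, was therefore upstream of the listed start but inside the Foxa1 span.

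Coverage of a start was common among genes at large. Of 17492 coding genes with a listed start window, EoGFP touched 42.1%, BraGFP 21.8%, EoV5 32.2% and EoVP16 52.6%. The Foxa genes touched were 2, 1, 2 and 3 of 3. All 4 lists over 1 window, as at Foxa2, was found for 15.2% of genes. The 3 Eomes lists without BraGFP, as at Foxa3 and the innermost Foxa2 start, was found for 13.0%, and EoVP16 alone, as at Foxa1, for 8.72%.

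**Figure D1:**
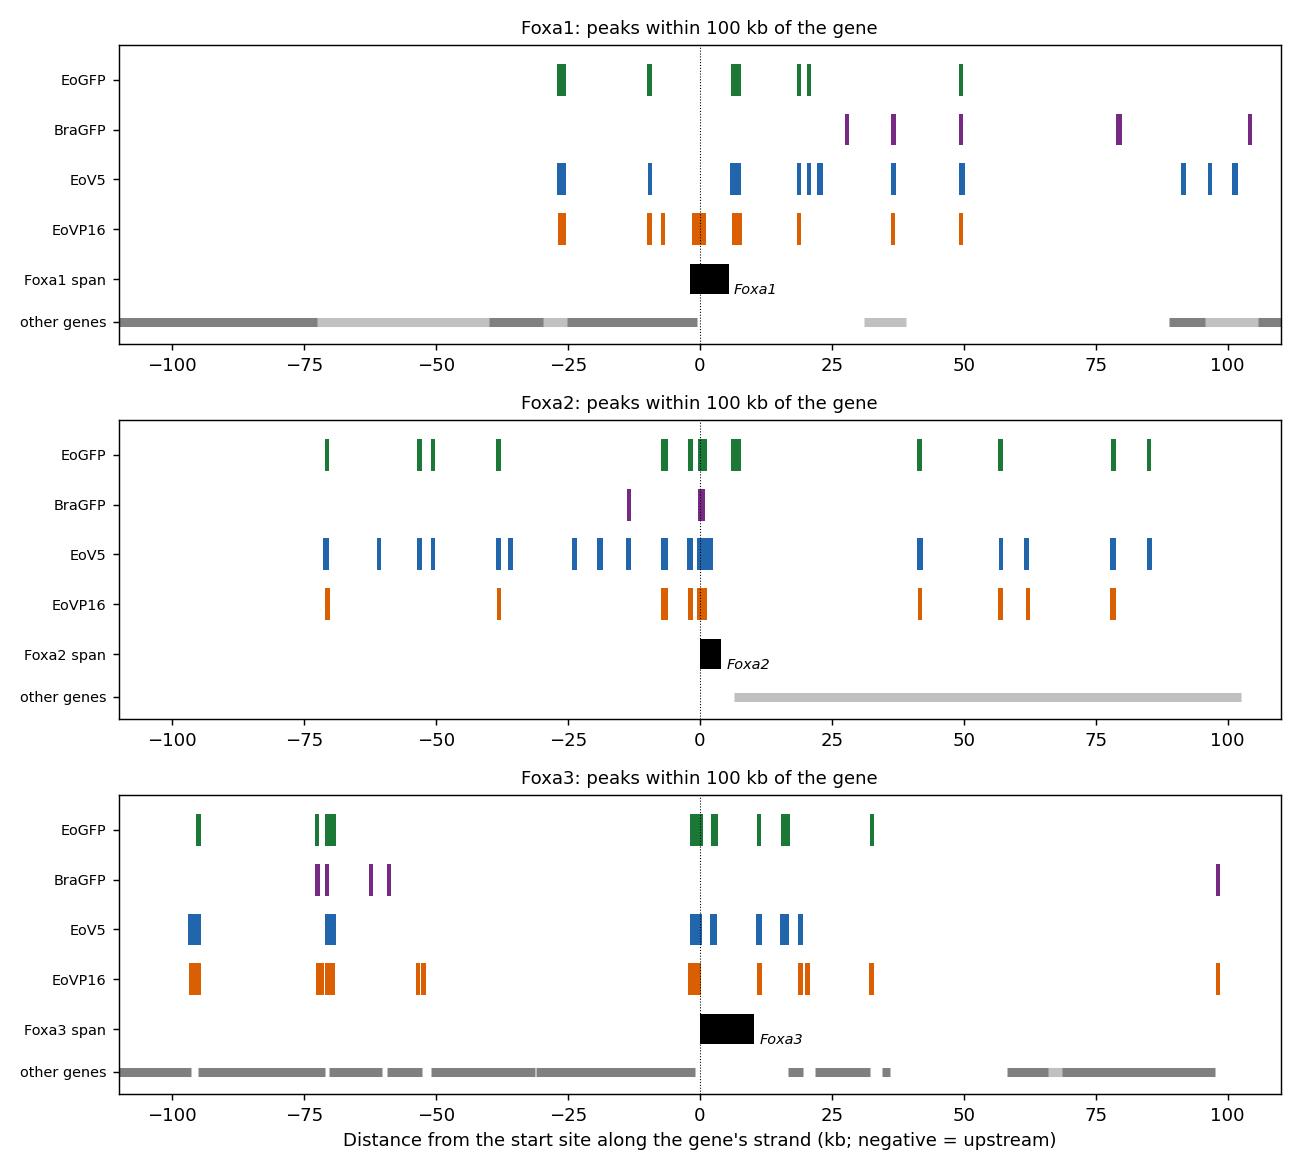
Peaks of the 4 lists around each Foxa gene, by distance from the start site along the gene's strand in kb (negative is upstream). Coloured boxes are peaks, widened where needed to be visible, and the black box is the gene span. Dark grey bars are other coding genes and light grey bars are long noncoding RNA genes. Pseudogenes and other noncoding genes are not drawn. The 4 lists meet at the Foxa2 start, the 3 Eomes lists at the Foxa3 start and EoVP16 alone at the Foxa1 start.

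Around Foxa2 (chr2:148042877-148046969), EoGFP and EoV5 peaks outnumbered those at most coding genes, while the EoVP16 and BraGFP counts were common ones. EoGFP had 12 peaks within 100 kb, EoV5 17, EoVP16 9 and BraGFP 2. The median coding gene had 5, 5, 6 and 4. Genes with as many peaks as Foxa2 made up 5.48% of coding genes in EoGFP, 0.822% (180 genes) in EoV5 and 27.7% in EoVP16. The BraGFP count went the other way, with 36.6% of genes having 2 peaks or fewer. Of 420 genes with exactly 12 EoGFP peaks, the median BraGFP count was 6 (range 1 to 19), and 20 genes (4.76%) had 2 or fewer. The contrast was smaller in a narrower window: within 50 kb EoGFP had 6 peaks, EoV5 9, EoVP16 5 and BraGFP still 2. In the taller 50% of the EoVP16 list, 3 peaks lay within 100 kb.

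No other coding gene lay within 100 kb of Foxa2, and Foxa2 was the nearest coding gene to each of its 40 peaks. The annotation placed 2 other genes there, the long noncoding RNA gene 9030622O22Rik, which begins 2.36 kb downstream, and the pseudogene Gm14108. The peaks joined into 18 sites, a site being the region covered by overlapping peaks of any list. Of these, 8 were in all 3 Eomes lists (44.4%, beside 22.8% of 71918 sites in the genome) and 2 held BraGFP (11.1%, beside 38.1%).

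The tallest EoV5 peak near Foxa2 was not at the gene but 38.1 kb upstream, at chr2:148084744-148085484. It reached 362 fragments (326 to 401), 51.8-fold over background, and EoGFP and EoVP16 also had peaks there while BraGFP did not. EoVP16 reached 54 fragments at this upstream site (40.6 to 70.5), the median of its whole list. In EoVP16 the start, at 152, was taller than this site, while in EoV5 the heights at the 2 places, 362 and 336, had overlapping intervals. The ratio of EoV5 to EoVP16 height was 6.70 upstream (exact 95% interval 5.03 to 9.10) and 2.21 at the start (1.82 to 2.70), and the intervals did not overlap. These intervals cover counting error only.

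The second BraGFP peak of Foxa2 lay 13.4 kb upstream, at chr2:148060124-148060621. EoV5 also had a peak there, of 139 fragments (117 to 164), but EoGFP and EoVP16 did not. Beyond it, EoV5 was the only list with peaks at 18.9, 23.7, 35.9 and 60.7 kb upstream, of 227, 147, 69 and 91 fragments. The first of these was taller than most EoV5 peaks, with 13.8% of the list as tall, although no other list had a peak there. Nearer the gene, at 1.80 and 6.71 kb upstream, the 3 Eomes lists met in lower peaks, of 78 and 81 fragments in EoV5 and 49 and 43 in EoVP16. At 50.5 and 53.1 kb upstream EoGFP and EoV5 met without EoVP16, with 121 and 99 fragments in EoV5. The outermost upstream site, at 70.8 kb, was in the 3 Eomes lists with 180 fragments in EoV5 and 37 in EoVP16.

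Downstream of Foxa2, each of 6 sites overlapped 9030622O22Rik. The one nearest to Foxa2, at 2.72 kb, was an EoGFP peak alone, chr2:148039185-148041126, 1942 bp wide with 4.92% of the list as wide, over the end of the noncoding gene that faces Foxa2. The other 5 lay 37.7 to 81.1 kb away, with EoV5 at 213, 125, 70, 177 and 120 fragments from near to far. EoVP16 was present at the first 4 of them, with 54, 42, 48 and 51 fragments. No BraGFP peak lay downstream of Foxa2 within 100 kb.

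**Figure D2:**
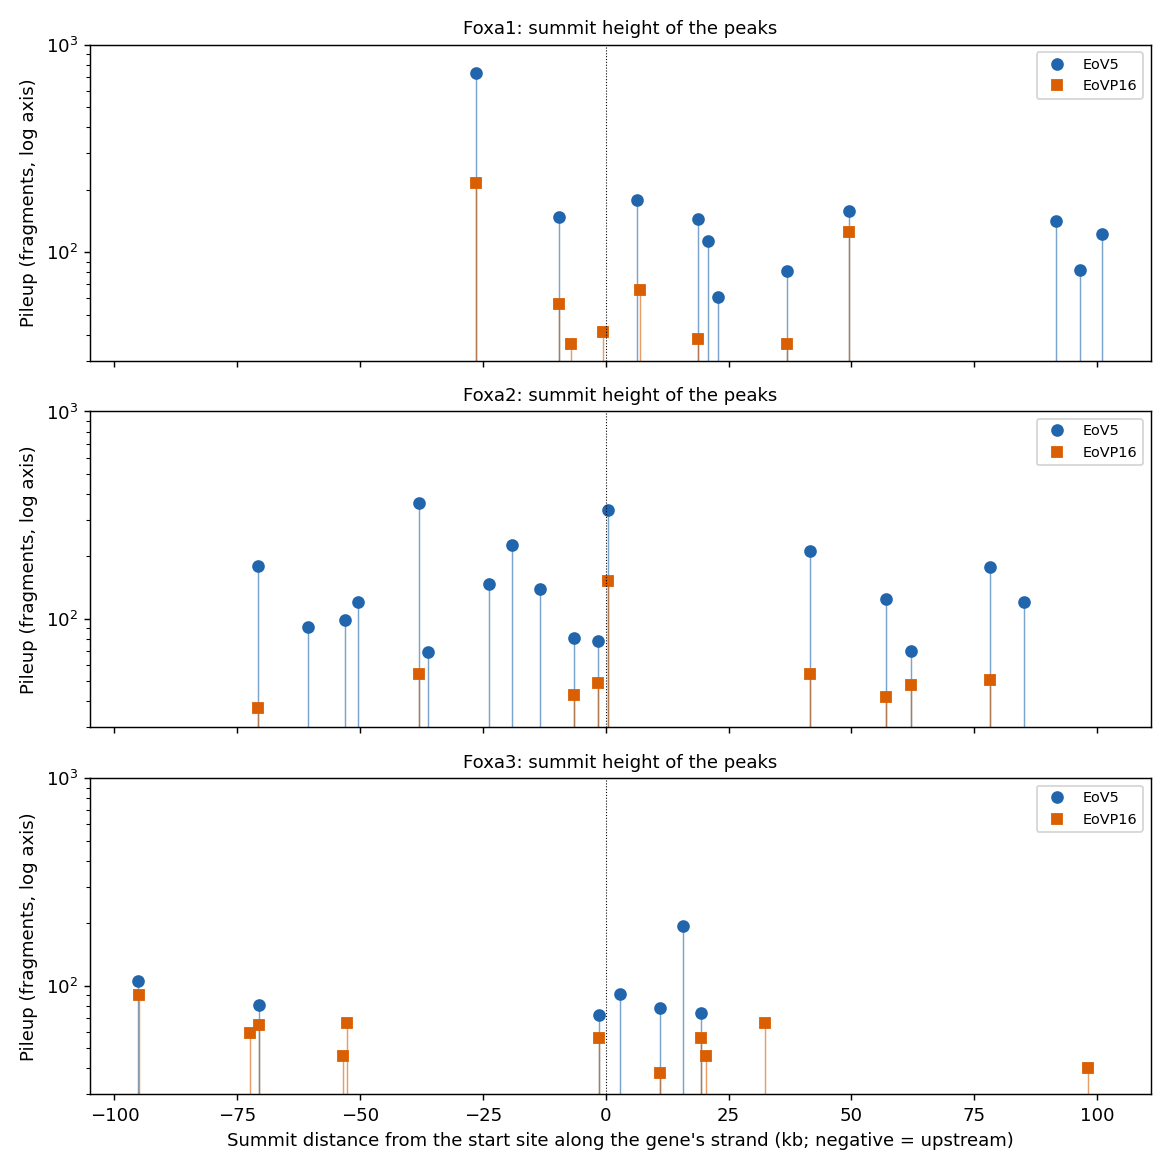
Summit height in fragments (log axis) of the EoV5 and EoVP16 peaks by distance of the summit from the start site in kb (negative is upstream). Among the Foxa peaks, the highest point of each list (729 and 215) is at the Foxa1 site 24.2 kb upstream of the gene span. Its EoV5 and EoVP16 summits stand at -26444 and -26457 bp from the start site. In EoV5 the Foxa2 peaks 38.1 kb upstream (362) and at the start (336) follow, while the peaks around Foxa3 lie between 72 and 194.

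Around Foxa1 (chr12:57540628-57548029), EoGFP had 6 peaks, BraGFP 5, EoV5 11 and EoVP16 8. Genes with as many made up 40.8%, 37.6%, 7.99% and 34.7% of coding genes, so EoV5 was the list in which the count stood highest. The peaks joined into 16 sites, of which 9 were in 1 list only (56.2%, beside 53.1% in the genome).

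The site 24.2 kb upstream of Foxa1 carried the tallest peaks of all those near the Foxa genes in both lists with heights. It lay inside Ttc6 and over the long noncoding RNA gene Gm30518. EoV5 covered chr12:57571453-57573092 with 729 fragments (677 to 784), 104-fold over background, and EoVP16 covered chr12:57571449-57572973 with 215 (187 to 246), 32.7-fold. These ranked 442 and 426 in their lists, with 1.16% and 1.19% of peaks as tall. EoGFP had a peak of 1678 bp there, and BraGFP had none. Since Ttc6 contains the site, the nearest coding gene was Ttc6 and not Foxa1.

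Closer to Foxa1, the 3 Eomes lists met just past the 3′ end, 1.35 to 1.57 kb downstream, where EoV5 reached 178 fragments (153 to 206) and EoVP16 reached 66 (51.0 to 84.0). The 2 summits there were 689 bp apart, the widest gap among the Foxa sites. The same 3 lists met 7.53 kb upstream, inside Ttc6, with 148 and 56 fragments, and 13.3 kb downstream with 145 and 38. At 15.2 kb downstream EoGFP and EoV5 met, with 113 fragments in EoV5, and at 17.2 kb EoV5 was alone with 61. EoVP16 was alone 5.10 kb upstream, at 36 fragments, its list's minimum.

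Each of the 5 BraGFP peaks near Foxa1 lay downstream, from 22.4 to 98.8 kb, and none within 10 kb. The site at 44.1 kb was in all 4 lists, and EoV5 reached 157 fragments (133 to 184) and EoVP16 reached 125 (104 to 149). That is the Foxa1 site where the 2 Eomes heights were closest, at a ratio of 1.26 (0.987 to 1.60). At 31.2 kb BraGFP met EoV5 (81 fragments) and EoVP16 (36) over the noncoding gene Gm20016, without EoGFP. The BraGFP peaks at 22.4, 73.9 and 98.8 kb had no Eomes partner. The last lay inside Mipol1, a coiled-coil protein gene, as did 3 EoV5 peaks without a partner at 86.1, 91.1 and 95.9 kb, of 141, 82 and 122 fragments.

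Around Foxa3 (chr7:19013283-19023539), EoGFP had 8 peaks, BraGFP 5, EoV5 7 and EoVP16 11. Genes with as many made up 24.0%, 37.6%, 33.5% and 16.8% of coding genes, so none of the 4 counts stood apart. Its surroundings were crowded: Nova2, Nanos2, Mypop, Irf2bp1, Sympk, Rsph6a, Dmwd, Dmpk, Six5, Bhmg1 and Fbxo46 lay within 100 kb. Foxa3 was the nearest coding gene to 2 of the EoGFP peaks, 0 of the BraGFP peaks, 2 of the EoV5 peaks and 1 of the EoVP16 peaks.

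Apart from the start, the sites nearest to Foxa3 were an EoGFP and EoV5 pair inside the gene, at chr7:19020126-19021563 with 91 fragments in EoV5 (73.3 to 112), and a site 0.964 kb downstream in the 3 Eomes lists, with 78 in EoV5 and 38 in EoVP16. The tallest EoV5 peak of the region, 194 fragments (168 to 223), lay 5.81 kb downstream at Irf2bp1, which encodes a transcriptional corepressor. EoGFP shared it and EoVP16 did not. A further site over Irf2bp1, at 8.85 kb, was in EoV5 (74) and EoVP16 (56). EoVP16 was alone at 10.1 kb downstream (46 fragments), and met EoGFP at Mypop, 22.3 kb downstream (66).

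The 5 BraGFP peaks near Foxa3 lay 58.9 to 87.9 kb away, and none was within 50 kb. Those at 58.9 and 62.2 kb upstream, in Dmwd and in Dmpk, a protein kinase gene of muscle, had no Eomes partner. At 69.9 kb all 4 lists met, with 81 fragments in EoV5 and 65 in EoVP16. The Eomes peaks reached into Dmpk, while the BraGFP peak and both summits lay just beyond its span, between Dmpk and Six5. At the homeobox gene Six5, 72.0 kb upstream, BraGFP met EoGFP and EoVP16 (59 fragments), and near Nova2, 87.9 kb downstream, it met EoVP16 (40). The remaining upstream sites were 2 EoVP16 peaks at Dmwd, of 66 and 46 fragments, and a site in the 3 Eomes lists at Bhmg1 and Fbxo46, 95.7 kb away, of 106 in EoV5 and 90 in EoVP16.

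**Figure D3:**
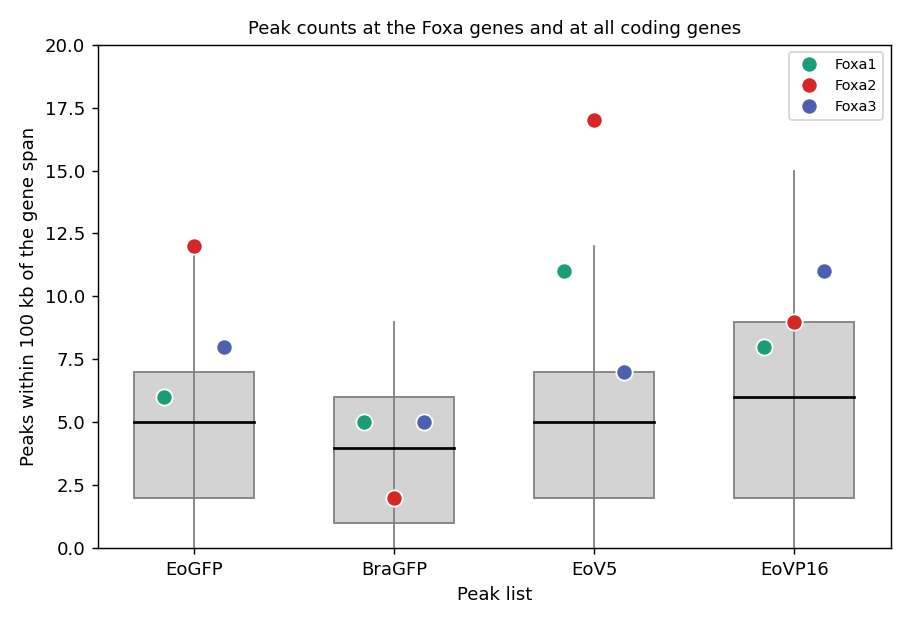
Peaks within 100 kb of each Foxa gene (points) beside all 21887 coding genes, whose box spans the quartiles with the median as a line and whose whiskers run from the 5th to the 95th percentile. Foxa2 lies above the EoV5 whisker with 17 peaks and below the BraGFP median with 2, while Foxa3 stays within the whiskers in every list.

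Set side by side, each Foxa gene had at least 1 peak within 100 kb in every list, but so did 87.2% of coding genes in EoGFP, 85.3% in BraGFP, 89.9% in EoV5 and 89.6% in EoVP16. The counts ran from Foxa2 down through Foxa3 to Foxa1 in EoGFP (12, 8 and 6), and from Foxa2 through Foxa1 to Foxa3 in EoV5 (17, 11 and 7). In EoVP16 Foxa3 led (11, 9 and 8 for Foxa3, Foxa2 and Foxa1), and in BraGFP Foxa1 and Foxa3 tied at 5 above Foxa2 at 2. These orders depended on how peaks were assigned. Within 50 kb, EoVP16 had 8 peaks at Foxa1 and 5 at each of the others, and BraGFP had 3, 2 and 0 at Foxa1, Foxa2 and Foxa3. Counting only peaks whose nearest coding gene was the Foxa gene, EoVP16 had 4, 9 and 1 and BraGFP 2, 2 and 0. With 1 list per construct there is no spread against which neighbours in these orders could be told apart. Within 10 kb, EoGFP had 2, 4 and 4 peaks at Foxa1, Foxa2 and Foxa3, EoV5 had 2, 3 and 5, EoVP16 had 4, 3 and 3, and BraGFP had 0, 1 and 0. The single BraGFP peak within 10 kb was the one over the Foxa2 start.

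The edge of the 100 kb window mattered little for Foxa2, whose outermost EoGFP peak inside lay at 81.0 kb and the next outside at 144 kb. For BraGFP at Foxa2 those distances were 13.4 and 114 kb. At Foxa1 the last BraGFP peak inside lay at 98.8 kb and the next EoV5 peak outside at 104 kb. At Foxa3 the outermost EoVP16 peak inside lay at 95.6 kb and the next at 103 kb.

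Eomes and Brachyury peaks coincided at 7 of the 49 Foxa sites (14.3%), close to the 15.0% of sites in the genome (10818 of 71918). Of the 26 EoGFP peaks, 4 shared at least 1 bp with a BraGFP peak (15.4%, Wilson 95% interval 6.15 to 33.5), beside 27.1% of the whole EoGFP list, which lies within that interval. These 4 were the Foxa2 start, the site 44.1 kb downstream of Foxa1, and the sites beside Dmpk and at Six5 near Foxa3. Of the 12 BraGFP peaks, 4 touched EoGFP (33.3%, 13.8 to 60.9), beside 29.3% of the BraGFP list. The Wilson intervals here and below treat peaks as independent. Peaks of 1 list are not replicates, so the intervals are description only and decide no difference. By gene, 1 of 6 EoGFP peaks at Foxa1, 1 of 12 at Foxa2 and 2 of 8 at Foxa3 met BraGFP. With or without an Eomes partner, BraGFP was at 12 of the 49 Foxa sites (24.5%), beside 38.1% of sites in the genome.

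The 3 Eomes lists coincided more often. Of the 35 EoV5 peaks near the Foxa genes, 23 touched an EoGFP peak (65.7%, 49.2 to 79.2), beside 61.2% of the EoV5 list, and 20 touched an EoVP16 peak (57.1%, 40.9 to 72.0), beside 53.1%. Of the 28 EoVP16 peaks, 20 touched EoV5 (71.4%, 52.9 to 84.7), beside 56.9% of the EoVP16 list. Each of these list-wide shares lay within the interval of the Foxa share, and the differences were not tested. At Foxa2 all 9 EoVP16 peaks touched an EoV5 peak. Of the 17 EoV5 peaks there, 9 touched EoVP16 (52.9%), which is near the 53.1% of the EoV5 list. At Foxa3, 5 of 11 EoVP16 peaks touched EoV5 (45.5%) and 5 of 7 EoV5 peaks touched EoVP16 (71.4%).

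**Figure D4:**
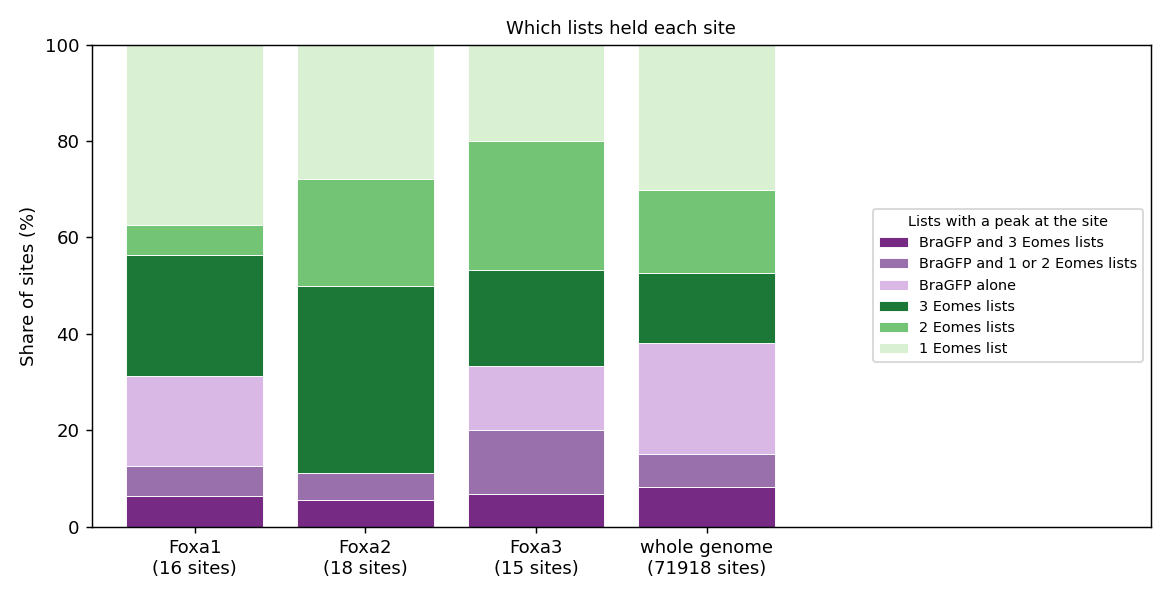
Share of sites (percent) at each Foxa gene and in the genome by the lists that held them, with classes containing BraGFP in purple and those without in green. Foxa2 has the smallest share with BraGFP (11.1%) and no site held by BraGFP alone. Such sites are 3 of 16 at Foxa1 and 2 of 15 at Foxa3, beside 23.0% of sites in the genome.

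At the 20 Foxa sites held by both EoV5 and EoVP16, heights could be compared, although the 2 libraries differ in depth by an unknown factor. The EoV5 to EoVP16 ratio therefore has meaning only against the ratio at other sites, whose median over 20280 pairs was 1.68 (quartiles 1.19 and 2.76). The Foxa pairs had a median of 2.23 and ran from 1.18 to 6.70. A ratio exists only where EoVP16 passed its minimum of 36, so EoV5 peaks without an EoVP16 peak have none. The tallest Foxa3 EoV5 peak, of 194 fragments, is among these. The 5 Foxa3 ratios that could be formed ran from 1.18 to 2.05. Of these, 4 were below the all-pair median, and at 4 the interval included that median. Foxa1 ran from 1.26 to 3.82 and Foxa2 from 1.46 to 6.70. Highest of the 20 pairs was the Foxa2 site 38.1 kb upstream, where 4.05% of all pairs were as high. The one 70.8 kb upstream followed at 4.86 (3.40 to 7.13), where 8.97% were as high. Its EoVP16 height was 37 fragments, close to the list's minimum. The Foxa2 EoV5 peak 18.9 kb upstream, of 227 fragments, had no EoVP16 peak and could not be ranked.

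The summits of the paired peaks lay close together, with a median distance of 29 bp at the Foxa sites and 27 bp over all pairs. At 17 of the 20 Foxa pairs (85.0%) the distance was at most 50 bp, beside 69.7% of all pairs. All 9 Foxa2 pairs were within that distance, including the site 38.1 kb upstream, where the heights differed most.

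**Figure D5:**
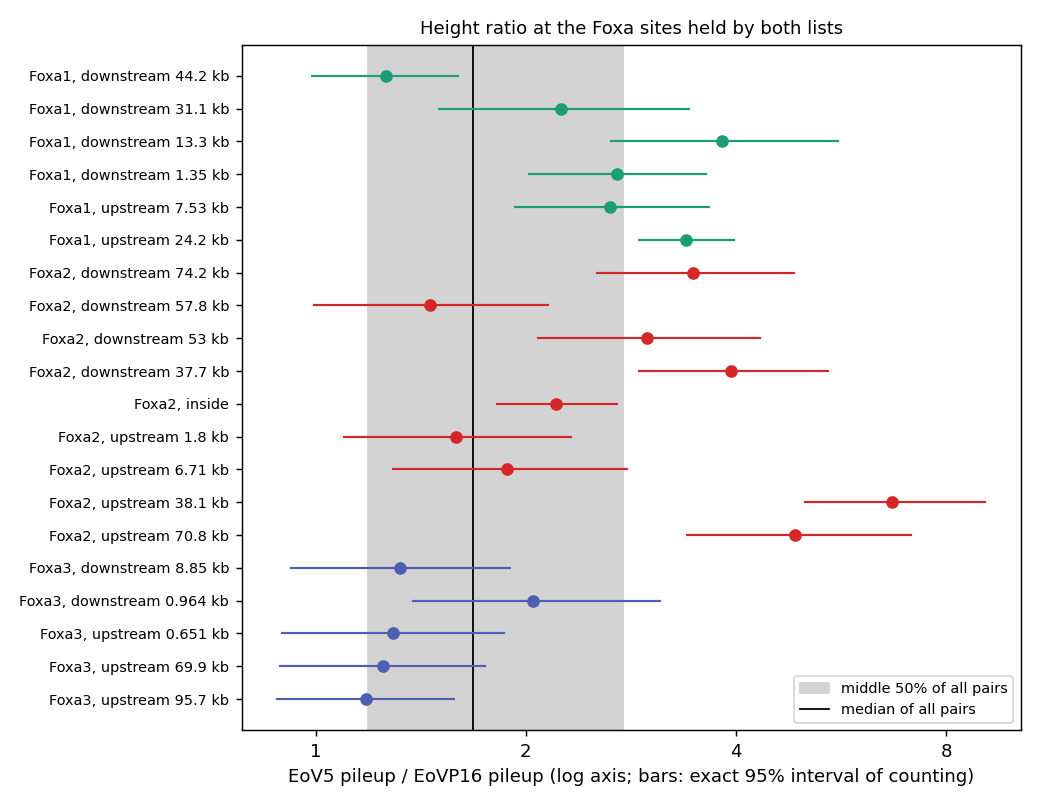
EoV5 height divided by EoVP16 height (log axis) at each of the 20 Foxa sites in both lists, labelled by gene and distance from the gene span, with bars for the exact 95% counting interval; the line is the median of all pairs (1.68) and the grey band their middle 50%. Of the 20 sites, 7 lie above the band, 5 at Foxa2 and 2 at Foxa1, with the Foxa2 sites 38.1 and 70.8 kb upstream highest, and 4 of the 5 Foxa3 sites lie below the median line.

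Genes of the tissues in which Foxa2 acts were set beside it. In a list of 12 definitive endoderm genes, each had a peak in every list, with median counts of 6.50 EoGFP, 3.00 BraGFP, 10.0 EoV5 and 6.50 EoVP16 peaks. None had more BraGFP than EoGFP peaks, beside 26.3% of all coding genes that did. Those with the most EoGFP peaks were Hnf4a, a nuclear receptor of endoderm and liver (13 EoGFP, 9 BraGFP, 14 EoV5 and 13 EoVP16), Gata4, a zinc-finger factor of endoderm and heart (10, 7, 15 and 10 in the same order), and Lhx1, a LIM homeobox factor of the anterior streak (9, 9, 11 and 8). Mixl1, a homeobox factor of the primitive streak, tied with Lhx1 in EoGFP (9, 4, 9 and 11). No gene of this list reached the 17 EoV5 peaks of Foxa2, and 1, Hnf4a, reached its 12 EoGFP peaks. Among the 7 with a listed start, Hhex and Lhx1 had all 4 lists over it, as Foxa2 did.

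Among 8 node and notochord genes the median counts were 8.50 EoGFP, 4.50 BraGFP, 6.50 EoV5 and 10.5 EoVP16 peaks. All 8 had an EoVP16 peak, but 7 had a peak in each of the other lists. Foxj1, a forkhead factor of motile cilia (12, 5, 11 and 14), Nodal, the TGF-beta ligand (10, 9, 11 and 14), and Chrd, a secreted BMP antagonist (9, 4, 5 and 10), had the most EoGFP peaks. Dand5, a secreted Nodal antagonist, tied with Chrd in EoGFP (9, 8, 7 and 15). No start of the 5 with a listed window was covered by all 4 lists. The EoV5 median was below the EoVP16 median here, unlike the counts at Foxa2.

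The 41 other forkhead genes, Foxj1 among them, had median counts of 4.00 EoGFP, 4.00 BraGFP, 5.00 EoV5 and 6.00 EoVP16 peaks, near those of all coding genes. The highest EoGFP counts were at Foxn3 (14, with 13 BraGFP, 13 EoV5 and 13 EoVP16), Foxp4 (14, 10, 18 and 22) and Foxr1 (13, 6, 10 and 12). Foxp4 was the one forkhead gene with more EoV5 peaks than Foxa2. Its span of 57500 bp and that of Foxn3, 373587 bp, are far longer than the 4093 bp of Foxa2, which widens the window in which peaks were counted.

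The coding genes whose 4 counts were most like those of each Foxa gene, by the sum of the absolute differences over the 4 lists, were Nuak2, Fhdc1 and Mrps33 for Foxa1, with sums of 0, 0 and 1. For Foxa3 they were Zfp61, Psd and Nek3, each with the same 4 counts. No gene matched Foxa2 as closely: Prkcb came nearest at a sum of 4 (13 EoGFP, 2 BraGFP, 16 EoV5 and 7 EoVP16), over a span of 345299 bp. Arap1 and Dpf3 followed at a sum of 5, with 4 and 6 BraGFP peaks.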

How the data were processed

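The 4 peak lists came from ChIP-seq of induced constructs. Per the submitters' processing notes, MACS2 2.1.1.20160309.4, Bowtie2 2.3.4, SAMtools 1.3.1, Picard 1.56.0, deepTools 3.0.2 and bedtools 2.27.0 were used on mm10, with no order or settings. The deposited EoGFP and BraGFP lists hold positions alone. In the deposited EoV5 and EoVP16 lists, which have no header and follow the column order of a MACS2 table, the signal is the summit pileup in whole fragments and the ratio is the fold enrichment over the caller's background. The −log10 p and −log10 q values deposited there were not used. The minimum pileups are taken from the names of the deposited lists. How the 2 GFP libraries were joined, whether they came from separate cultures, and which control was used are not given in the sources used here. Depth is unknown, so heights were ranked within a list.

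Peaks on unplaced contigs (4 to 7 a list) and exact repeats (4 to 46) were removed, and starts were taken as written. Distances ran from the peak midpoint to the RefSeq GRCm38.p6 gene span, a table without exons, so exons and introns are not given. Overlap meant at least 1 bp. Pileups carry exact Poisson, shares Wilson and height ratios exact binomial 95% intervals, all for counting error only. Only start windows were searched for motifs; a genome sequence was not used here. Code (Python 3.11.15, pandas 2.3.3, scipy 1.17.1, matplotlib 3.10.9) was tested on simulated data.

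The genes named were the 3 Foxa genes, coding genes in their windows or nearest to their peaks, the 3 with the most EoGFP peaks in each list of endoderm, node and notochord or other forkhead genes, and the 3 genes over 200 kb away most like each Foxa gene in their counts. The members and lists were chosen with earlier results of these data known. Alternatives covered the window, the overlap rule, stricter lists and the nearest gene. RNA-seq, ATAC-seq, H3K27ac and uninduced libraries were not analysed here.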

Additional observations from a re-analysis of the deposited data

How the results depend on the processing

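The totals near the Foxa genes (26 EoGFP, 12 BraGFP, 35 EoV5 and 28 EoVP16 peaks) depended on the window, by construction, since a narrower one holds fewer peaks. Within 50 kb they were 17, 5, 22 and 18, and within 10 kb 10, 1, 10 and 10. In the wider 50% of the GFP lists and the taller 50% of the others they were 13, 6, 21 and 14. Counting peaks whose nearest coding gene was a Foxa gene left 17 EoGFP, 4 BraGFP and 14 EoVP16 peaks, and 24 EoV5 peaks, within 1.5 times the full count. EoGFP peaks overlapping BraGFP went from 4 to 2 within 50 kb. EoV5 peaks overlapping EoVP16 went from 20 to 14 there. Requiring 50% of the shorter peak left 4 and 20, and midpoints within 500 bp left 3 and 19. Counting any base in the window changed none of the 4 totals, and a window of 100 kb from the start site, chosen after seeing the data, gave 26, 11, 34 and 28.

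No paired analysis was possible because each pair of numbered EoGFP and BraGFP libraries was deposited as 1 list. The lists' different minimum pileups and the unknown depth limit what a missing peak means, and no count here has a replicate error. The EoGFP minimum of 120 was the highest, but without the depth the minimums cannot be ranked by strictness.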

Other observations

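Beyond the genes chosen by rule, 3 other forkhead genes were singled out after their values were seen. Foxh1, the forkhead partner of Smad proteins in Nodal signalling, had 12 EoGFP, 4 BraGFP, 11 EoV5 and 13 EoVP16 peaks within 100 kb. Foxq1 had 7 EoGFP, 9 EoV5 and 7 EoVP16 peaks and 0 BraGFP peaks. Its surroundings held fewer BraGFP peaks than peaks of any Eomes list, as did those of each Foxa gene and of Foxh1. The share of all coding genes with that order was not computed. Foxp1 had 21 BraGFP peaks, above its 11 EoGFP and 15 EoV5 peaks but below its 23 EoVP16 peaks. Its span was 597405 bp. More BraGFP than EoGFP peaks were found at 8 of the 41 other forkhead genes, 1 of the 8 node and notochord genes (T, with 8 against 7) and 0 of the 12 definitive endoderm genes, beside 26.3% of all coding genes (5756 of 21887); the difference between the lists was not tested.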
